A study of Mus musculus with 6 samples.

Results

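The 78 genes described here encode glycosyltransferases that build and cap sugar chains on proteins and lipids. These genes were read in mesenchymal cells of the neonatal mouse lung after the dam had been given an antibody against hedgehog ligands, or control IgG, before birth. They were chosen by symbol, as the numbered members of the B3galt, B3gnt, B4galt, B4galnt, St3gal, St6gal, St6galnac, St8sia, Galnt, Fut and Mgat families among 48397 gene symbols in the count files. Timed-pregnant dams of genotype PdgfraEGFP/+, in which a green fluorescent reporter marks cells expressing the PDGF receptor gene Pdgfra, were injected intraperitoneally on day E18.5 of gestation with 5E1, an antibody against hedgehog ligands, or with control IgG. Lungs of PdgfraEGFP/+ pups were dissociated on postnatal day 8, live cells with EGFP fluorescence were sorted, and poly(A) RNA was sequenced in bulk from 3 IgG and 3 5E1 libraries. Both groups carry the reporter allele and differ in the labels only by the antibody. Whether each library is 1 pup, a pool or a separate litter is not stated in the labels. The p-values therefore reflect only the variation among these 6 samples, some of which may be technical.

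These enzymes work in the Golgi apparatus, each adding 1 kind of sugar to a growing chain. Polypeptide GalNAc-transferases start mucin-type O-glycans by linking N-acetylgalactosamine (GalNAc) to serine or threonine. Mgat enzymes set how many branches an N-glycan has, galactosyl- and N-acetylglucosaminyltransferases (B4galt, B3galt, B3gnt) lengthen the branches, and sialyl- and fucosyltransferases (St3gal, St6gal, St6galnac, St8sia, Fut) cap or decorate them. The finished chains affect how surface receptors, adhesion molecules and matrix proteins are bound by lectins and by each other.

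Reads assigned to genes numbered 16958433 to 34318583 per library. The antibody's readout genes moved with the labels: Ptch1, the hedgehog receptor gene that the pathway induces, measured 411 ± 4.92 CPM (read counts scaled to the TMM-adjusted library size) in IgG and 90.1 ± 10.4 CPM in 5E1, and Gli1, its transcription factor gene, 125 ± 14.8 and 57.5 ± 11.9 CPM (SD, n = 3 each; edgeR adjusted p 4.12e-06 and 0.00109). Pdgfra, whose reporter marked the sorted cells, was at 502 ± 77.5 and 645 ± 73.3 CPM (edgeR adjusted p 0.0742). Mesenchymal markers were abundant in every library, the summed level of 8 of them (2 called higher and 1 lower) lying between 48992 and 108825 CPM. Markers of other cell types were present at lower sums and several of these sums were higher in 5E1. The sum of 11 neutrophil markers was 13.3 to 17.8 CPM in IgG and 132 to 213 CPM in 5E1, with 9 of the 9 tested called higher. That of 11 macrophage and monocyte markers was 105 to 130 and 168 to 305 CPM, with 7 of 11 called higher. For 9 endothelial markers (1 called higher) it was 129 to 157 CPM in IgG and 179, 324 and 144 CPM in 5E1 replicates 1 to 3. For 13 epithelial markers (2 called higher) it was 447 to 703 CPM and 539, 1524 and 500.3 CPM. Only 5E1 replicate 2 was above the IgG range there. For 6 mesothelial markers (2 called higher) the sum was 47.4 to 88.6 and 127 to 248 CPM. For 10 lymphocyte markers (1 of 6 tested called higher) it was 4.25 to 4.82 and 5.15 to 10.7 CPM. For 7 neural and glial markers, 2 of them without a read, Chat among these, it was 5.26 to 8.96 and 6.70 to 10.1 CPM. Replicate 2 was the highest 5E1 library for the endothelial, epithelial, mesothelial, lymphocyte and macrophage sums, and replicate 1 for the neutrophil and neural sums. The part of these cells in the results that follow was not tested. In bulk RNA, fewer cells of a type and less RNA per cell cannot be told apart.

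Of the 78 genes, 62 passed the filter on low counts and were tested. With edgeR's quasi-likelihood test and Benjamini-Hochberg adjustment over all 16198 genes tested, an adjusted p under 0.05 being a call, 10 were called higher and 13 lower in 5E1 and 39 were not called. Over all genes 23.2% were called, 12.1% higher and 11.1% lower. The glycosyltransferases were singled out after 2 of them, B3galt5 and St6gal2, had been seen to be far lower in 5E1 in this same contrast, so nothing is read from the share called. Without these 2, whose place among the calls the choice fixed, 10 of the other 60 were called higher and 11 lower. The 62 tested members had a median log2 fold change of -0.04, beside 0.00 for all genes tested. Scaling by library size alone, without TMM, shifted the median of all genes by -0.14 on the log2 scale, and 7 members were then called higher and 20 lower. Without IgG replicate 2, 6 were called higher. Of the 21 called genes other than B3galt5 and St6gal2, 13 kept the call in each of up to 13 alternative analyses that tested the gene. The other 8 lost it in 1 or more of those that left out a library, and they are named with their values. The groups did not overlap in CPM for 32 of the 62 members, or 30 of the 60, and for 42.2% of all genes tested. At least 2-fold differences were called for 9 members, or for 7 without the 2 (4 higher and 3 lower), and for 7.96% of all genes, and nothing is read from these shares either. B3galt5 and Mgat5b passed the filter on low counts through the IgG libraries alone and Galnt14 through the 5E1 libraries alone, the other group having 0 libraries at the filter's level of 0.369 CPM.

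**Figure D1:**
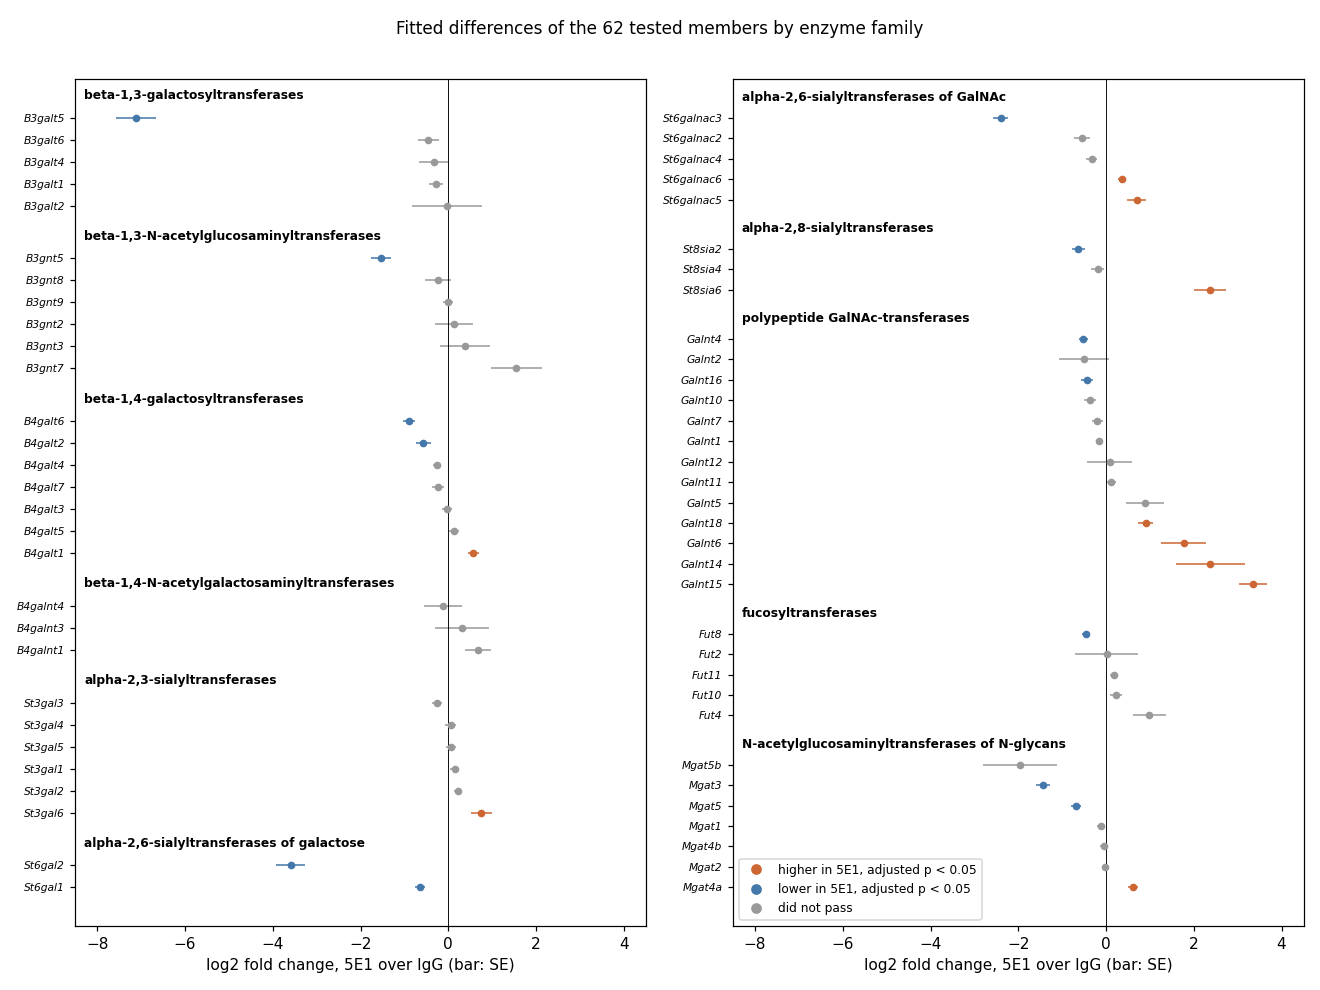
Fitted log2 fold change of 5E1 over IgG for each of the 62 tested members, in panels by enzyme family, with the standard error as a bar. Colour marks the 10 members called higher, the 13 called lower and the 39 not called; B3galt5 lies farthest to the left at -7.11 and Galnt15 farthest to the right at 3.35.

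B3galt5 and St6gal2 are the members whose values led to the choice of these genes, and their values are given as a description. Their adjusted p values are left out, and their place in the counts of calls supports nothing. B3galt5 makes type 1 chains by adding galactose to N-acetylglucosamine, and it lies on chromosome 16 of mm10 (96235801 to 96319859, plus strand). Its level was 12.02, 15.3 and 11.9 CPM in IgG replicates 1 to 3 and 0.109, 0 and 0.184 CPM in 5E1 replicates 1 to 3. All IgG libraries were high and all 5E1 libraries near 0: 954 reads in IgG stood against 7 in 5E1, of which replicate 2 had none, which allows up to 0.0893 CPM there. The pooled level was 144-fold lower, with an exact binomial 95% interval of 69.8 to 360 that covers counting error only. St6gal2, which adds sialic acid to terminal galactose and lies on chromosome 17 (55445382 to 55514581, plus strand), measured 11.002, 14.2 and 10.6 CPM in IgG and 1.52, 0.506 and 1.07 CPM in 5E1. The lowest IgG library was thus 10.6 CPM and the highest 5E1 library 1.52 CPM, and the fitted level was 12.1-fold lower in 5E1.

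The sequence just before the start of 4 genes is shown because these are the members with the largest fitted differences among those above 1 CPM in a group mean: B3galt5, St6gal2 and St6galnac3, which were lower, and Galnt15, which was higher. They come from RefSeq's promoter table (GRCm38.p6, the build of mm10), read 5′ to 3′ on the gene's strand, and are cut where a GENCODE M21 exon begins. Capitals mark CpG dinucleotides. RefSeq lists 3 starts for B3galt5, of which the most upstream is shown, and counts per gene do not tell which start was used.
B3galt5 (chr16:96235551-96235800, plus strand): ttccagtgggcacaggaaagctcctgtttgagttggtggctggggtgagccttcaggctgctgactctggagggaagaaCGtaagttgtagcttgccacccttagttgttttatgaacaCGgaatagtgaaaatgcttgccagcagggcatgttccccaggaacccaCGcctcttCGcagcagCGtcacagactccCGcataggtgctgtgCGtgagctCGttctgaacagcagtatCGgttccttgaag
St6gal2 (chr17:55445132-55445381, plus strand): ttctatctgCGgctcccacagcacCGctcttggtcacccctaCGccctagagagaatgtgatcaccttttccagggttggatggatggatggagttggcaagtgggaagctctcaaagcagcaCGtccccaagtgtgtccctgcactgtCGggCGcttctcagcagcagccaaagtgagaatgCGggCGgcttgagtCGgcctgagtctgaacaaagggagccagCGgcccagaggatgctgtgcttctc
St6galnac3 (chr3:153725175-153725383, minus strand): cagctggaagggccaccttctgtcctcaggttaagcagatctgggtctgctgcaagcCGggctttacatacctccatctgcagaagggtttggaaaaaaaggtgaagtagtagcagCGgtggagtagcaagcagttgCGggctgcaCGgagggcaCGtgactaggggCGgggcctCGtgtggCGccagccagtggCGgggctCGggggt
Galnt15 (chr14:32028853-32028988, plus strand): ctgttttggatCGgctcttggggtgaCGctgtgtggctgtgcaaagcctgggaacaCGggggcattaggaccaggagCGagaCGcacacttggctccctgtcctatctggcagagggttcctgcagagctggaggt

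The letters GACCACCCA, the consensus bound by the hedgehog transcription factors of the GLI family, were searched on both strands in the 250 bases before each listed start. They occurred in 0 of 78 windows of the 57 members in the table and in 0.225% of all 32851 windows. The shorter CCACCCA, which the first contains, occurred in 5 of the 78 member windows (6.41%) and in 8.11% of all windows. None of the windows of B3galt5, St6gal2, St6galnac3 or Galnt15 held either. No match says only that these letters are not in these windows.

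Enzymes that start O-glycans moved in both directions. Of 16 polypeptide GalNAc-transferases 13 were tested, of which 4 rose, 2 fell and 7 were not called, with a median log2 fold change of 0.08. Galnt15 (chromosome 14, 32028989 to 32062197) had the largest rise of all members. It measured 22.7, 25.4 and 22.6 CPM in IgG and 143, 322 and 253 CPM in 5E1. Every 5E1 library was far above every IgG library, and the 5E1 libraries differed among themselves, replicate 1 being the lowest and replicate 2 the highest. The fitted fold was 10.2 (log2 fold change 3.35, SE 0.31, edgeR adjusted p 0.000939). Galnt18 rose from 21.5, 17.9 and 18.04 CPM to 45.6, 33.6 and 28.5 CPM, a log2 fold change of 0.90 (SE 0.17, edgeR adjusted p 0.00406).

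Galnt6 and Galnt14, both of the same enzyme class, rose from levels near the limit of detection. Galnt6 measured 0.613, 0.392 and 0.327 CPM in IgG and 0.815, 2.501 and 1.21 CPM in 5E1, with an edgeR adjusted p of 0.0311 that became 0.0899, 0.109, 0.136 and 0.0566 without IgG replicate 2 or 3 or 5E1 replicate 2 or 3. Galnt14, which passed the filter on low counts only through the 5E1 libraries, where it is high, had 10 reads in IgG and 53 in 5E1 in all. Its adjusted p of 0.0472 ranged from 0.0275 to 0.161 with 1 library left out, and passed then only without IgG replicate 3. With the replicate number as a block, the adjusted p was 0.0665 for Galnt6 and 0.0534 for Galnt14.

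Galnt4, which prefers peptides that already carry GalNAc, fell from 54.3, 67.6 and 56.4 CPM to 41.7, 39.6 and 43.4 CPM (fitted log2 change -0.51, SE 0.10, edgeR adjusted p 0.00456). Galnt16 fell from 151, 166 and 144 CPM to 122, 89.995 and 130 CPM, with an adjusted p of 0.0368 that was 0.0814, 0.119 and 0.0633 without IgG replicate 1, 2 or 3 and 0.0597 with the replicate number as a block. Galnt1, the most abundant per length in IgG, was at 114, 116 and 104 CPM in IgG and 93.02, 106 and 101 CPM in 5E1 and was not called (log2 fold change -0.15). Galnt10 was not called either (-0.36, edgeR adjusted p 0.0806), but was called lower without 5E1 replicate 1 (0.0113), with the replicate block (0.0317), with no low-count filter (0.00954) and with library size alone (0.0216).

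The make-up of this family per kilobase of exon therefore differed between the groups. Galnt15 made up 4.803% ± 0.205 of the family's CPM per kilobase in IgG and 34.7% ± 10.02 in 5E1 (SD, n = 3 each). Galnt1 made up 26.0% ± 0.309 and 17.0% ± 0.651, and Galnt16 24.6% ± 0.794 and 13.5% ± 3.42. The summed level of the family was 77.6 ± 3.92 CPM per kilobase in IgG and 107 ± 10.98 in 5E1. Galnt2 enters these shares at only 0.143% ± 0.031 in IgG and 0.0782% ± 0.0421 in 5E1. Its counts are uncertain, since 90.0% of its exon bases also lie in another gene on the same strand. The shares, the sum and the rank of Galnt1 therefore hold only for the reads as counted.

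**Figure D2:**
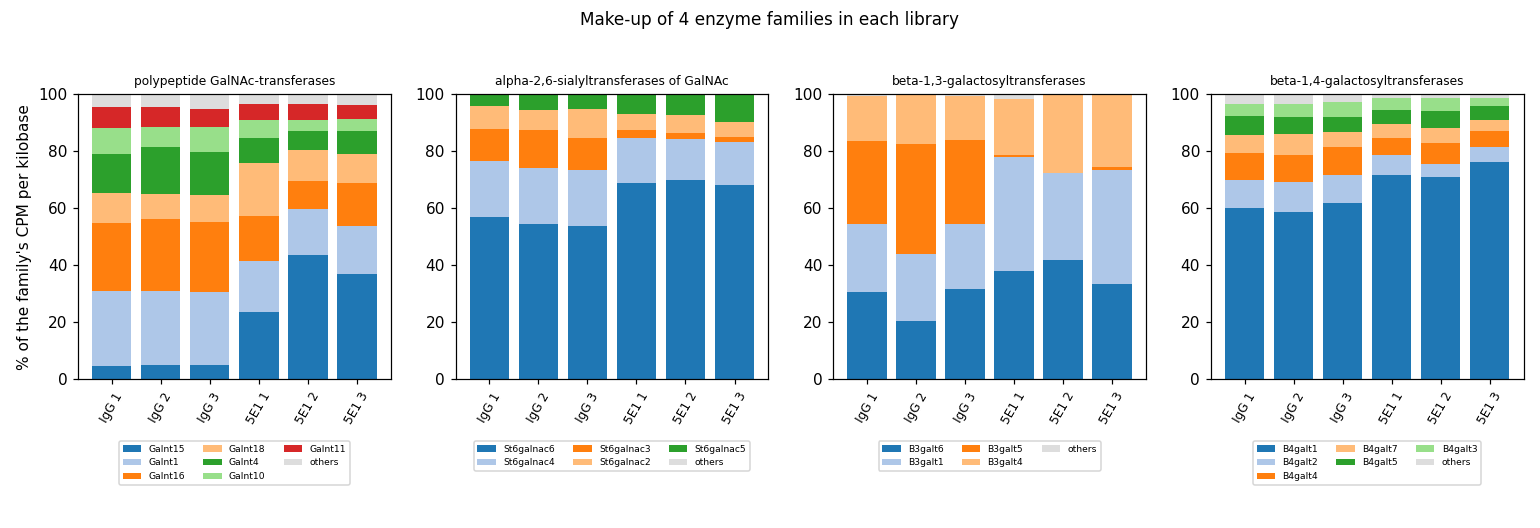
Share of each member in the length-scaled level (CPM per kilobase of exon, in %) of 4 enzyme families, 1 stacked bar per library. Galnt15 takes 4.57% to 4.96% of the GalNAc-transferases in IgG and 23.8% to 43.4% in 5E1; B3galt5 takes 29.2% to 38.4% of the beta-1,3-galactosyltransferases in IgG and at most 0.926% in 5E1.

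Among chain-extending galactosyltransferases, B4galt1, the main enzyme that makes N-acetyllactosamine, had the highest length-scaled level of all 78 members. It rose from 267, 258 and 282 CPM to 385, 341 and 476 CPM, with no overlap of the groups (log2 fold change 0.57, SE 0.12, edgeR adjusted p 0.0075). B4galt6, which makes lactosylceramide for glycolipids, fell from 21.4, 21.6 and 18.2 CPM to 11.7, 9.97 and 11.3 CPM (fitted log2 change -0.89, SE 0.13, edgeR adjusted p 0.000996). B4galt5, which catalyses the same step, was at 27.2 ± 2.39 CPM in IgG and 29.7 ± 2.07 CPM in 5E1 and was not called. B4galt2 fell from 52.1, 54.9 and 53.9 CPM to 44.4, 25.5 and 38.99 CPM, at an adjusted p of 0.0482 by edgeR. Leaving out any IgG replicate or 5E1 replicate 3 raised it to 0.0867 to 0.124, and the stricter filter (5 CPM or more in 3 libraries) to 0.0558. Of the 7 members of this family 1 rose, 2 fell and 4 were not called, those being B4galt3 (log2 fold change -0.03), B4galt4 (-0.26), B4galt5 (0.13) and B4galt7 (-0.23), the last an enzyme of the linker that joins glycosaminoglycans to proteins. B4galt1 made up 60.1% ± 1.46 of the family's CPM per kilobase in IgG and 72.8% ± 2.77 in 5E1.

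Besides B3galt5, none of the beta-1,3-galactosyltransferases was called. B3galt1, B3galt2, B3galt4 and B3galt6 had log2 fold changes of -0.28, -0.03, -0.33 and -0.46, with edgeR adjusted p values of 0.208 to 0.981, and by DESeq2 none was called either. At an unadjusted p under 0.05 there was also none among these 4. B3gnt5, which starts lacto-series glycolipids, was the only called member of the 6 beta-1,3-N-acetylglucosaminyltransferases tested. Its level was 7.66, 8.23 and 11.1 CPM in IgG and 2.34, 3.54 and 3.35 CPM in 5E1. Every IgG library was above every 5E1 library, and the fitted log2 change was -1.53 (SE 0.23, edgeR adjusted p 0.00109). B3gnt7, at 0.355 ± 0.116 CPM in IgG and 1.07 ± 0.611 CPM in 5E1, was not called (edgeR adjusted p 0.0765), but was called higher without 5E1 replicate 3 (0.0361) and with no low-count filter (0.0463). B3gnt9, the highest of this family per length, was at 48.6 ± 4.42 CPM in IgG and 48.5 ± 5.27 CPM in 5E1 and was not called.

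Branching enzymes of N-glycans also went different ways. Mgat3, which adds the bisecting N-acetylglucosamine, fell from 25.2, 28.7 and 20.3 CPM to 9.73, 7.59 and 10.1 CPM. All IgG libraries lay above all 5E1 libraries, and the fitted log2 change was -1.44 (SE 0.16, edgeR adjusted p 0.000257). Mgat5, whose branch can carry long N-acetyllactosamine chains, fell from 42.3, 44.6 and 39.5 CPM to 27.9, 22.7 and 28.02 CPM (fitted log2 change -0.69, SE 0.11, adjusted p 0.00152). Mgat4a, which adds another branch, rose from 26.2, 24.2 and 22.4 CPM to 32.9, 39.9 and 38.4 CPM (fitted log2 change 0.61, SE 0.11, adjusted p 0.00287). Mgat1 and Mgat2, the enzymes that open the first and second branch, were not called, at -0.12 and -0.02, and neither was Mgat4b at -0.05. Mgat5b, at 0.6003 ± 0.163 CPM in IgG and 0.164 ± 0.144 CPM in 5E1, had a log2 fold change of -1.96 and an edgeR adjusted p of 0.110. Fut8, which adds the core fucose of N-glycans, fell from 110, 127 and 102 CPM to 76.2, 83.8 and 86.6 CPM (fitted log2 change -0.45, SE 0.10, edgeR adjusted p 0.00807).

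Fut8 was the only called member of the 5 fucosyltransferases tested. Fut10 and Fut11 had log2 fold changes of 0.22 and 0.18, and Fut2 of 0.02. Fut4, one of the enzymes of Lewis x antigens on leukocytes, was at 1.67 ± 0.594 CPM in IgG and 3.25 ± 1.26 CPM in 5E1 (edgeR adjusted p 0.0817, and 0.0246 with no low-count filter). Fut7, which completes selectin ligands on leukocytes and was too low to be tested, had 0 reads in IgG and 11 in 5E1. Among 9 Siglecs and selectins, lectins of leukocytes and endothelium that bind such caps, 7 were tested, 3 rose and none fell. Cd33 (log2 fold change 1.92) was among the 3 and kept its call in every alternative. Siglecf (1.26) lost it in 10 of 12, every one that left out a library included. The marker sums of neutrophils, of macrophages and monocytes and of lymphocytes, given above, were also higher in 5E1. The part of such cells in the values of these genes was not tested.

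Both sialyltransferases that cap galactose in the St6gal family were lower in 5E1, St6gal2 having led to the choice of these genes. St6gal1, the main enzyme of this linkage and the fourth highest member per length, fell from 113, 146 and 123 CPM to 74.3, 91.2 and 79.2 CPM. The groups did not overlap, and the fitted log2 change was -0.64 (SE 0.11, edgeR adjusted p 0.0029). In IgG it made up 94.1% of the pair's summed CPM per kilobase and in 5E1 99.2%. The pair's sum was 27.5 ± 3.77 CPM per kilobase in IgG and 16.7 ± 1.69 in 5E1. The rest of each sum is St6gal2, so these shares and sums are a description and no further result. In the St3gal family, which caps galactose by another linkage, 1 of 6 members rose and none fell. That was St3gal6, at 5.76, 7.62 and 4.18 CPM in IgG and 10.8, 10.96 and 7.55 CPM in 5E1, where 1 IgG library lay just above the lowest 5E1 library. Its edgeR adjusted p of 0.044 was 0.0990 to 0.148 without IgG replicate 1 or 3 or 5E1 replicate 1 or 2, and 0.0817 with library size alone. The others, St3gal1 (0.15), St3gal2 (0.21), St3gal3 (-0.25), St3gal4 (0.05) and St3gal5 (0.06, the enzyme that makes the simplest ganglioside), were not called (log2 fold changes in parentheses). The summed level of the family was 70.5 ± 4.98 CPM per kilobase in IgG and 75.2 ± 3.81 in 5E1.

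Sialyltransferases that act on GalNAc split. St6galnac3, which adds sialic acid to already sialylated O-glycan cores, fell from 17.5, 20.6 and 18.1 CPM to 4.24, 3.39 and 3.06 CPM. The 5E1 libraries were all under 5 CPM and the IgG libraries all above 17 CPM, a log2 fold change of -2.40 (SE 0.17, edgeR adjusted p 1.84e-05). St6galnac5, an enzyme of ganglioside synthesis, lies next to it on chromosome 3 among the genes tested, 216 kb away (152817081 to 152982246, beside 153198266 to 153725174 for St6galnac3). It was called in the other direction, from 4.56, 5.82 and 5.81 CPM to 7.82, 7.06 and 11.3 CPM (fitted log2 change 0.70, SE 0.22). By edgeR the adjusted p of 0.0405 was 0.0809 to 0.182 without IgG replicate 1, 2 or 3 or 5E1 replicate 3, 0.0526 with limma-voom and 0.0763 with library size alone. St6galnac6, the highest of the family per length, rose from 47.5, 44.7 and 46.2 CPM to 60.04, 54.7 and 62.4 CPM (fitted log2 change 0.35, edgeR adjusted p 0.0126). It lost the call without IgG replicate 2 (adjusted p 0.0560) or 5E1 replicate 3 (0.0593) and with library size alone (0.103). St6galnac2 (-0.55) and St6galnac4 (-0.33) were not called. St6galnac2 was called lower without IgG replicate 2 (adjusted p 0.0487), with no low-count filter (0.0439) and with library size alone (0.0254), and St6galnac4 with library size alone (0.0159).

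Of the enzymes that join sialic acids to each other, 3 of 6 were tested. St8sia2, which makes polysialic acid on the neural cell adhesion molecule and was the sixth highest member per length, fell from 142, 109.8 and 149 CPM to 83.6, 71.9 and 103 CPM. The highest 5E1 library was just below the lowest IgG library, a fitted log2 difference of -0.64 (SE 0.15). By edgeR the adjusted p was 0.0152, or 0.0601 when IgG replicate 3 was left out. St8sia4, the other polysialic acid enzyme, was at 11.2 ± 0.811 CPM in IgG and 9.77 ± 1.15 CPM in 5E1 and was not called. St8sia6 rose from 1.43, 1.23 and 0.835 CPM to 3.80, 9.14 and 5.12 CPM, with no overlap (log2 fold change 2.38, SE 0.37, edgeR adjusted p 0.00137). The 3 beta-1,4-N-acetylgalactosaminyltransferases tested were not called, with B4galnt1, which makes complex gangliosides, at 2.73 ± 0.151 CPM in IgG and 4.34 ± 1.67 CPM in 5E1 (edgeR adjusted p 0.132, and 0.0402 without 5E1 replicate 3). B4galnt3 and B4galnt4 had log2 fold changes of 0.32 and -0.12.

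**Figure D3:**
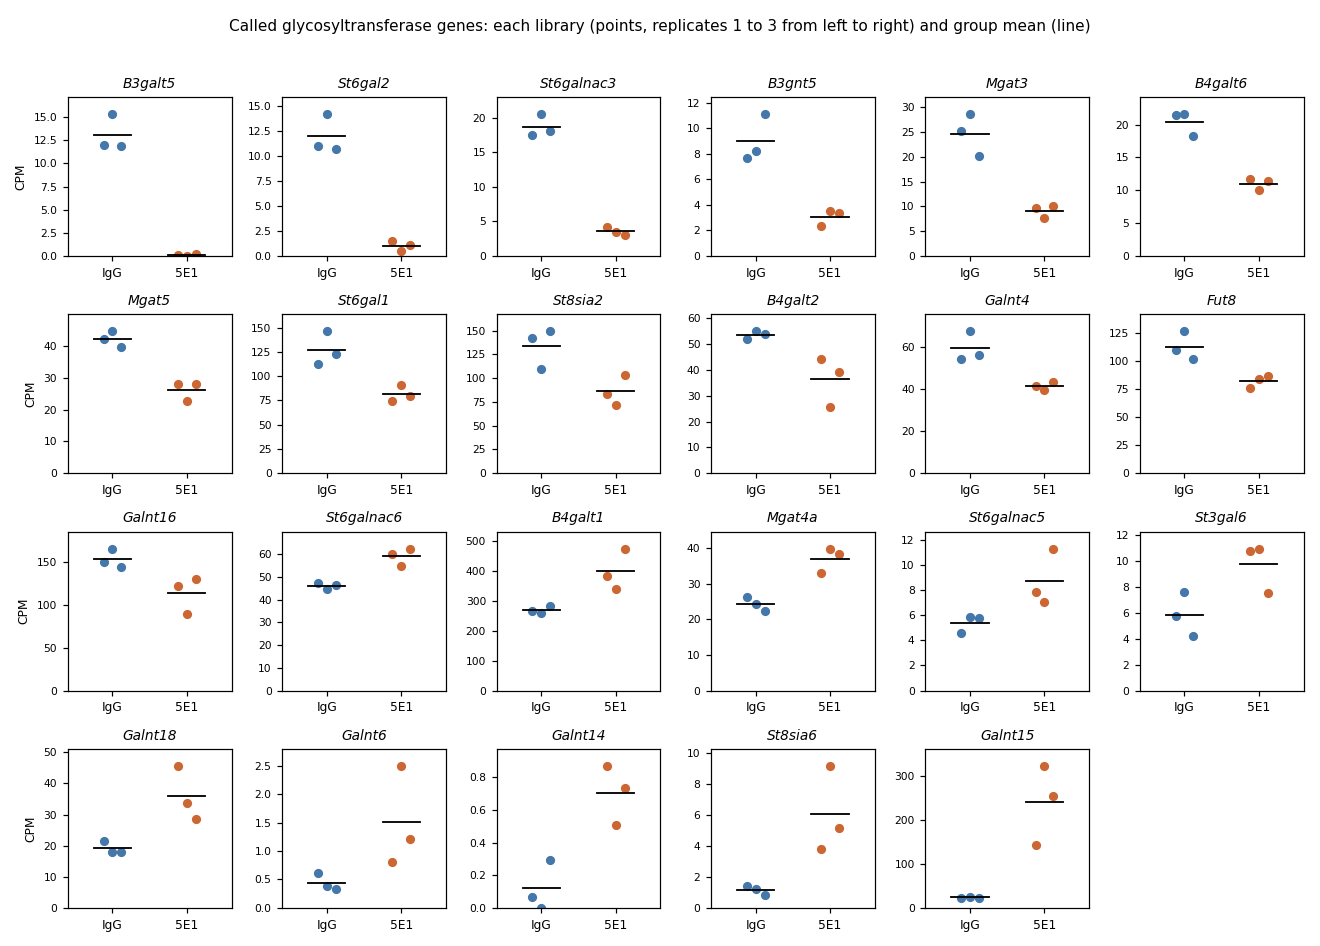
CPM in each of the 6 libraries (points, replicates 1 to 3 from left to right) and the group mean (line) for the 23 called members, B3galt5 and St6gal2 among them as a description, ordered from the lowest to the highest fold change, each panel with its own linear axis from 0. The groups overlap only for St3gal6, whose highest IgG library (7.62 CPM) is above its lowest 5E1 library (7.55 CPM).

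Levels can be compared between genes only per length. The 6 highest members over all libraries were B4galt1, at 63.6 CPM per kilobase in IgG and 94.6 in 5E1, St3gal4 (25.4 and 26.4), Mgat2 (22.3 and 22.01), St6gal1 (25.9 and 16.6), Galnt15 (3.73 and 37.9) and St8sia2 (24.8 and 16.0). St3gal4, which caps galactose with sialic acid, and Mgat2 did not differ between the groups beyond their spread. The median level over all libraries was 3.32 CPM per kilobase for called members and 2.70 for those tested and not called. The 6 members with differences of at least 5-fold were B3galt5, St6gal2, St6galnac3, Galnt14, St8sia6 and Galnt15. In IgG they lay between 0.0203 CPM per kilobase for Galnt14 and 3.73 for Galnt15.

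**Figure D4:**
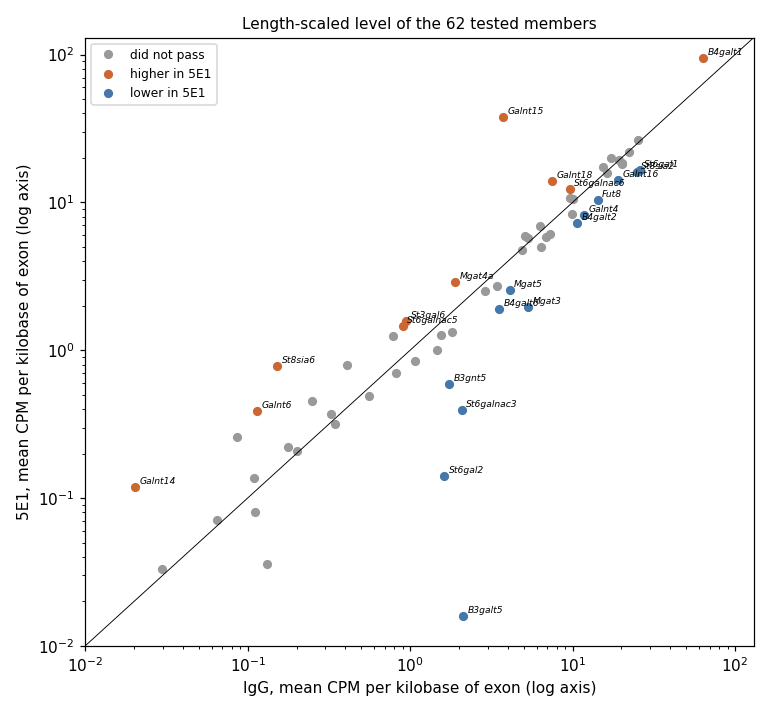
Mean CPM per kilobase of exon in IgG (x, log axis) against 5E1 (y, log axis) for the 62 tested members, with the line of equal levels; called members are coloured and named. B3galt5 (2.12 in IgG and 0.0158 in 5E1) and Galnt15 (3.73 and 37.9) lie farthest from the line.

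The 16 members that did not pass the filter had 0 to 83 reads over all libraries, and 4 of them (B3gnt4, Mgat4d, St8sia3 and St8sia5) had none. Galnt3 had 41 reads in IgG and 42 in 5E1. B4galnt2 had 5 and 20, Fut9 14 and 4, B3gnt6 10 and 8, Galnt13 10 and 5 and Mgat4e 7 and 4. The rest, Fut1, Fut7, Galnt9, Mgat4c, St6galnac1 and St8sia1, had at most 11 reads in a group. Galnt2 (at most 0.545 CPM in a library) and B3gnt2 (at most 2.07 CPM) were tested, but their counts are uncertain. In GENCODE M21, 90.0% of the exon bases of Galnt2 and 65.5% of those of B3gnt2 also lie in an exon of another gene on the same strand. Of B4galt2 and Galnt4, 28.2% and 8.25% of exon bases are shared in this way. Exons of 11 of the 23 called members overlap another annotated gene on either strand, and how reads in shared exons were counted, and with which strand setting, is not given in the sources used here.

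Genes that feed or flank these enzymes were read from 10 lists of 124 symbols chosen with earlier results of these data known. Of all genes tested 23.2% were called, 12.1% higher and 11.1% lower. Nothing is read from the counts called in any of the 10 lists, the Siglecs and selectins above included. Of 27 genes of N-glycan precursor assembly, transfer and trimming 3 rose and 3 fell, and the list's median was -0.14 on the log2 scale. The mannosidase genes Man1a (log2 fold change 1.44), Man2a1 (0.87) and Man2a2 (0.32), which trim N-glycans, were the ones that rose. Of the same class Man1c1 (-0.34) fell, and Man1a2 and Man1b1 were not called. Man1a and Man2a1 kept the call in every alternative, and Man2a2 and Man1c1 did not. Without IgG replicate 1, 2 or 3, 1 gene of this list fell, without 5E1 replicate 3 none, and with library size alone 11. Of 21 genes of nucleotide sugar supply and transport 4 rose and 1 fell. Gfpt2, which starts the hexosamine pathway to N-acetylglucosamine, rose from 32.5 ± 6.59 to 86.7 ± 7.40 CPM (edgeR adjusted p 0.000135). Of this list 1 gene rose without IgG replicate 2 and 2 without IgG replicate 1 or 3 or 5E1 replicate 1 or 3, as well as with library size alone, DESeq2, no low-count filter or the replicate block.

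Among 9 tested genes of sialic acid supply and removal, 1 rose and 1 fell, with 5 lower under library size alone. Slc35a1, which carries activated sialic acid into the Golgi, fell from 43.8 ± 1.07 to 32.3 ± 2.04 CPM (fitted log2 change -0.44, edgeR adjusted p 0.0055). Neu3, a sialidase gene of the plasma membrane, rose from 2.73 ± 0.499 to 6.33 ± 0.578 CPM (edgeR adjusted p 0.00332). Of 9 tested glycolipid, terminal and sulfate-adding enzymes 3 rose and 3 fell, 1 rising without IgG replicate 2 or 5E1 replicate 3 or with library size alone. The sulfotransferase genes Chst1 (log2 fold change -2.33) and Chst2 (-1.08), which sulfate galactose or N-acetylglucosamine on such chains, and Ggta1 (-0.62), which adds a terminal alpha-galactose, were the 3 that fell. Other sulfotransferase genes, Chst4 (3.29) and Chst8 (0.81), rose, as did A4galt (0.61). Chst4 was near the limit of detection in IgG, at 0.181 ± 0.0439 CPM, and at 1.74 ± 1.05 CPM in 5E1. It kept its call in every alternative that tested it, and Chst8 and A4galt did not.

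Of 16 genes of O-fucose, O-mannose and O-glucose addition none rose and 4 fell, among them Pomgnt1 (-0.53), which extends O-mannose on dystroglycan. The number was 1 without IgG replicate 1 or 2 and 2 without 5E1 replicate 3. Among 5 tested O-GalNAc core enzymes C1galt1, the core 1 enzyme, rose (log2 fold change 0.48, edgeR adjusted p 0.0291), a call lost without any library except 5E1 replicate 1. Of 5 glycosaminoglycan linker genes tested Xylt1 fell (-0.81), not called without IgG replicate 1 or 2, and of 3 relatives outside the symbol pattern none was called. Of 7 tested galectins, lectins that bind galactose-ended chains, 2 rose and 1 fell. Lgals3 rose from 5.72 ± 1.22 to 22.3 ± 10.95 CPM and Lgals4 from 13.9 ± 1.67 to 38.03 ± 8.46 CPM, and Lgals9 (-0.36) lost its call without any IgG replicate or 5E1 replicate 2 or 3. Of the 31 called genes of these lists, 14 kept the call in every alternative that tested them.

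The nearest tested protein-coding genes on either side of the members with at least 2-fold calls did not all move with them. With 23.2% of all genes tested called, nothing is read from how many neighbours were called. Beside B3galt5, Sh3bgr (6.87 kb away) had a log2 fold change of -0.32 and was not called. Beside Mgat3, Tab1 (-0.05) and Mief1 (-0.02) were not called. Beside Galnt15, Ankrd28 was called lower (-0.35) and Dph3 was not called (0.12), and beside Galnt6, Slc4a8 was called higher (1.80) and Bin2 was not called (0.80). Klhl6, 174 kb from B3gnt5, was called lower (-0.93) and Lclat1, 250 kb from Galnt14, higher (0.42), each in the direction of its neighbour. On the other side of these members, Lamp3 beside B3gnt5 (0.43) and Ehd3 beside Galnt14 (-0.01) were not called. Beside St6gal2, Kat2b, 1773 kb away, was called higher (0.40), and beside St8sia6 neither neighbour was called.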

How the data were processed

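Whole-number read counts per gene symbol were deposited by the authors, 1 file per library; per the submitters' processing notes the build was mm10 and the tools included HTSeq 0.6.0, STAR 2.5.0c and DESeq2 1.10.0, alongside Picard 1.126 and bedtools 2.17.0. For their roles, the annotation and the strand setting, the sources used here give nothing. The 5 summary lines of each file, 36.4% to 54.7% of all its reads, were left out. Counts were tested with edgeR 4.0.16 (robust quasi-likelihood, TMM scaling, filterByExpr with a minimum count of 10 and total of 15, prior count 0.125), with Benjamini-Hochberg adjustment over all genes tested and a call at an adjusted p under 0.05. The tests were checked on simulated data. CPM per kilobase used GENCODE M21 exon unions, and all 78 members matched. The alternatives were other scalings, DESeq2 1.42.0, limma-voom (limma 3.58.1), other filters, a replicate block and leaving out each library. No 2 libraries of the same group looked like copies, their counts differing beyond sampling noise (chi-square per degree of freedom 16.1 to 55.8). The members and lists were chosen with earlier results of these data known. Named genes are every called member, the highest members per length, members of small families, and up to 3 called genes per list with the smallest p. Further genes are named for the N-glycan precursor list and the list of terminal and sulfate-adding enzymes.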

Additional observations from a re-analysis of the deposited data

How the results depend on the processing

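No member's log2 fold change that was called reversed its sign in any of the 13 alternatives. The number of members called lower, 13, became 20 with library size alone. The median log2 fold change of all members tested, -0.04, became -0.18 with library size alone. It was -0.17 with at least 5 CPM in 3 libraries, a filter under which fewer members were tested. With 1 library left out, 6 to 8 members were called higher, 10 to 14 lower, and the median was -0.13 to -0.0059; the fewest calls higher, 6, came without IgG replicate 2. With the replicate number as a block, 8 members were called higher and 13 lower. Same-numbered libraries deviated together with r of -0.144, -0.00758 and -0.0708, and no library correlated best with its own number, so the numbers were not taken as pairs. Calls gained under some alternative, beside those given with their genes, were St3gal2 (0.0363 with at least 5 CPM in 3 libraries) and, with library size alone, B4galt4, Galnt1, Mgat1 and St3gal3. Leaving aside B3galt5 and St6gal2, the 13 calls that held throughout were St6galnac3, B3gnt5, Mgat3, B4galt6, Mgat5, St6gal1, Galnt4, Fut8, B4galt1, Mgat4a, Galnt18, St8sia6 and Galnt15; St8sia6, Galnt6 and Galnt14 were not tested under the filter of at least 5 CPM in 3 libraries. With 3 libraries a group and few reads, folds of Galnt14, Galnt6 and Mgat5b are imprecise.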
